A study of Mus musculus with 6 samples.

Results

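The Eph receptors and the ephrins were compared between 2 sorted populations of a mouse mammary carcinoma cell line. The genes are the receptors Epha2, Epha4, Epha7, Ephb2, Ephb3 and Ephb4 and the ligands Efna1, Efna5, Efnb1 and Efnb2. These 10 genes were given by name and make up 10 of the 14765 gene annotations in the deposited counts. Reads were summed per gene symbol in each library and scaled to the gene reads of that library.

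The cells are Mvt1, an FVB/N mouse line of mammary epithelial cancer cells that was derived from a tumour of a mouse with Myc and Vegf transgenes. The labels name no other allele and no treatment for either group, and both grew as adherent cells in DMEM with fetal bovine serum. The line was stained for CD24, a glycoprotein anchored in the cell surface by a lipid, and sorted by flow cytometry into CD24- and CD24+ cells. Poly(A) RNA of 3 plates of each group was sequenced, which gives 6 libraries of 1 cell line. No independent sorts are described, so the SDs and p-values below measure the spread between plates.

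Eph receptors are the largest family of receptor tyrosine kinases. Their ligands, the ephrins, also sit in a membrane, so that a signal passes mostly where cells touch, and it can run into the receptor cell and back into the ephrin cell. Ephrin-A ligands are held by a lipid anchor and mostly bind EphA receptors, while ephrin-B ligands span the membrane and mostly bind EphB receptors, and Epha4 binds ligands of both classes. In epithelia these genes are known for sorting cells into separate layers and for adhesion, repulsion and movement, and Epha2 and Ephb4 with Efnb2 have been studied in the mammary gland.

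Because family members are alike, the reads were first checked for whether they can tell the genes apart. The stretches below are from a conserved region of the receptors, the 60 coding bases that start at the catalytic loop of the kinase domain, where a capital marks a position that is not the same in all 6 receptors. They are shown 5′ to 3′ on the coding strand, from GENCODE M21 transcripts on GRCm38.
Epha2: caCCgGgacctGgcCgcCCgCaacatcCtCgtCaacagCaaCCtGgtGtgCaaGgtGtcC
Epha4: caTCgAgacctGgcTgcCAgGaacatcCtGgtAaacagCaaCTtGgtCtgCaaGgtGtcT
Epha7: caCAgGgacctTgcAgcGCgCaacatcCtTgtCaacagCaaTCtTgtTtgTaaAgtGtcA
Ephb2: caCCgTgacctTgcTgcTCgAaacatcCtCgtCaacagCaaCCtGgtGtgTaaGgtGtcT
Ephb3: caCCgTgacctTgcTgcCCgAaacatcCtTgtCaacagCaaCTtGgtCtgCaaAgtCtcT
Ephb4: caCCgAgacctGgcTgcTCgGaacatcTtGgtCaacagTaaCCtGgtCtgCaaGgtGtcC

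The stretches lie within 1 coding exon each. They are at chr4:141322296-141322355 (plus strand, exon 13) in Epha2, chr1:77382926-77382985 (minus strand, exon 13) in Epha4 and chr4:28950452-28950511 (plus strand, exon 13) in Epha7. In the EphB receptors they are at chr4:136659626-136659685 (minus strand, exon 12) in Ephb2, chr16:21221378-21221437 (plus strand, exon 12) in Ephb3 and chr5:137369806-137369865 (plus strand, exon 13) in Ephb4. The 6 receptors shared 40 of the 60 bases. The differences were spread along the stretch, so that no 47-nt read inside it could come from more than 1 of them. Over the whole coding sequence, the longest identical run between any pair of these receptors was 17 to 32 bases, shorter than the 47-nt reads.

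The ephrin-B ligands are alike at the end of the cytoplasmic tail, which carries the tyrosines and the PDZ-binding end used in reverse signalling. The last 60 coding bases before the stop codon are shown with capitals at the positions that differ.
Efnb1: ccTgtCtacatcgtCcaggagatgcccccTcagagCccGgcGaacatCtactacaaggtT
Efnb2: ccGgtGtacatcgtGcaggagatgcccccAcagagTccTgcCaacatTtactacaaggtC

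These bases are at chrX:99147465-99147524 (plus strand, exon 5) in Efnb1 and chr8:8620591-8620650 (minus strand, exon 5) in Efnb2, and 51 of the 60 were shared. The longest identical coding run between any pair of the 4 ligands was 9 to 14 bases. Reads that touched the receptor stretch numbered 12 in CD24- and 5 in CD24+ libraries for Epha4, 2 and 23 for Epha7, and 3 and 24 for Ephb3. Those that touched the tail stretch numbered 54 and 198 for Efnb2 and 10 and 18 for Efnb1. These are raw reads, and the CD24+ libraries held more reads in all.

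The libraries held 9046025 to 25692147 mapped reads, of which 6491832 to 19100843 were annotated to a gene. CD24+ replicate 1 was the shallowest. Across genes, log2 CPM (reads of a gene per 1000000 gene reads) correlated at 0.988 to 0.996 within a group and at 0.907 to 0.92 across the groups. For these correlations 0.5 CPM was added before the log. Cd24a, the gene of the sorted marker, averaged 10.2 CPM (SD 2.79) over the CD24- libraries and 77.1 CPM (SD 7.30) over the CD24+ libraries, 3 of each. Of the 11 epithelial markers Krt8 and Krt18 were abundant, while Krt7 had 10 reads, Epcam 6, Elf3 3, Cdh1 2 and Cldn7 1 over all libraries, so most markers of the labelled epithelial type were at or near absent. A bulk library cannot tell fewer cells with a transcript from less of it per cell.

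Between 88.2% and 98.3% of the reads annotated to each of the 10 genes matched a transcript of that gene exactly, and between 48.3% and 52.1% lay on the plus strand of the genome. All CPM, those of Cd24a and of the correlations above included, are scaled by edgeR's TMM method. Being counts per gene, they are compared between libraries only. Differences are log2 fold changes of CD24+ over CD24- cells from edgeR's quasi-likelihood test, with p-values adjusted by Benjamini-Hochberg over 11125 genes and called below 0.05. Standard errors (SE) are not given by edgeR. They were computed as the size of the log2 fold change over the square root of that test's F statistic. The 95% intervals were built from them with the t distribution.

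In CD24+ cells 6 of the 10 genes were higher, 2 were lower and 2 were not called. Among all genes tested, 46.1% were called, 23.8% higher and 22.3% lower, so calls were common in this comparison. The libraries of the groups did not overlap for 8 of the 10 genes, against 57.3% of all genes. The median log2 fold change was 0.44 over the 10 genes, 0.36 over the receptors, 0.54 over the ligands and 0.02 over all genes.

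**Figure D1:**
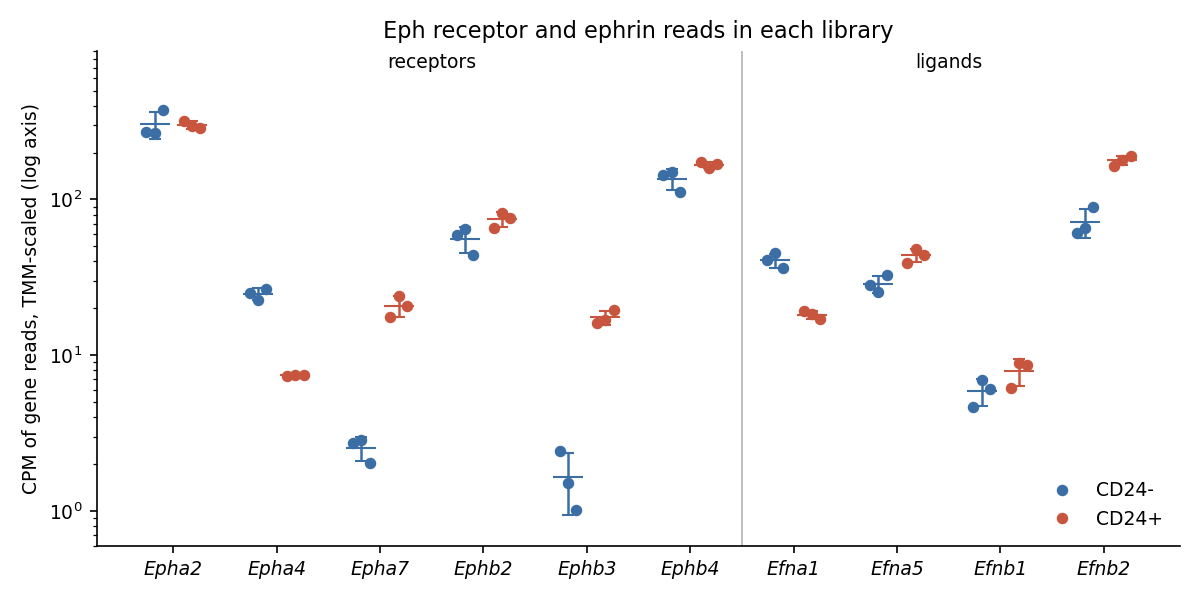
CPM of each Eph receptor and ephrin gene on a log axis, with 1 point per library, CD24- in blue and CD24+ in red, and the mean and SD of 3 libraries as bars. Epha7 and Ephb3 lie below 3 CPM in each CD24- library and above 16 CPM in each CD24+ library, while Epha4 and Efna1 lie lower in CD24+ libraries, and the points of Epha2 overlap.

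Ephb2, Ephb3 and Ephb4 were called higher in CD24+ cells, 3 of 3 beside 23.8% of all genes tested, by very unequal amounts, while the further EphB gene Ephb6 was not called (0.31), and the calls of Ephb2 and Ephb4 depended on single libraries. Ephb3, a receptor known for placing cells along the intestinal crypt, had the largest change of the 10 genes in the reads annotated to them. It had 2.42, 1.52 and 1.01 CPM in CD24- replicates 1 to 3 and 16.2, 16.8 and 19.5 CPM in CD24+ replicates 1 to 3. Each CD24+ library was therefore far above each CD24- library, and CD24- libraries held only 9 to 23 reads of it. The log2 fold change was 3.40 with a standard error of 0.24 (95% interval 2.87 to 3.93, adjusted p = 1.84e-06 from edgeR), a 10.6-fold higher level.

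Ephb3 was the only one of the 10 genes with reads that also matched transcripts of another Eph gene. Of 2255 reads that matched an Ephb3 transcript anywhere, 783 were annotated to Ephb3 by the authors and 1345 also matched transcripts of Epha10. The 1472 reads not annotated to it were of 20 distinct sequences, and 1311 of these reads were a pure repeat of 2 bases. Those found in the 4185-nt main transcript start between its bases 3995 and 4007, in the 3′ UTR. With all 2255 reads counted, its log2 fold change was 0.91, still called but no longer the largest (Epha7 was at 3.07), and with the reads of its coding sequence alone the gene also stayed called higher.

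Ephb2, a receptor of ephrin-B ligands that shares many roles with Ephb3, changed much less. Its values were 59.0, 65.0 and 43.9 CPM in CD24- and 65.6, 81.6 and 76.5 CPM in CD24+ replicates 1 to 3. The groups did not overlap, but the highest CD24- and the lowest CD24+ library lay close together. The log2 fold change was 0.42 ± 0.14 (SE; adjusted p = 0.032 from edgeR), 1.34-fold. The call was lost without CD24- replicate 1, CD24- replicate 3, CD24+ replicate 2 or CD24+ replicate 3, with log2 fold changes of 0.45, 0.28, 0.34 and 0.39, and when each distinct sequence was counted once.

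Ephb4, the receptor that binds ephrin-B2 on blood vessels and in the mammary epithelium, had 144, 150.3 and 112 CPM in CD24- libraries. In CD24+ libraries it had 174, 158 and 169 CPM, above each CD24- value. Its log2 fold change was 0.30 ± 0.11 (SE; adjusted p = 0.0445 from edgeR), 1.23-fold. This call was lost without CD24- replicate 1, CD24- replicate 3, CD24+ replicate 1 or CD24+ replicate 3, with log2 fold changes of 0.34, 0.18, 0.27 and 0.28, and under other scalings of the libraries. CD24- replicate 3 held the lowest value of both Ephb2 and Ephb4.

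The 3 EphA receptors went different ways, 1 higher, 1 lower and 1 not called, beside 23.8% higher and 22.3% lower of all genes tested. Epha7, a receptor best known from axon guidance and the closing of the neural tube, had 2.74, 2.84 and 2.03 CPM in CD24- and 17.6, 24.2 and 20.7 CPM in CD24+ replicates 1 to 3. Its lowest CD24+ library was well above its highest CD24- library. The log2 fold change was 3.04 with a standard error of 0.19 (adjusted p = 9.03e-07 from edgeR), 8.23-fold.

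Epha7 also has annotated coding transcripts that lack the kinase stretch printed above. Reads that fit only full-length transcripts (6746 and 6615 nt) numbered 37 in CD24- and 425 in CD24+ libraries. Reads that fit only the short ones (2880 and 2323 nt) numbered 0 and 7, and 31 and 395 reads fit both kinds. A count of 0 allows up to 3 reads, so no change of the short form can be read from these counts. A further 6 and 109 reads fell in none of these classes. Reads found here therefore came mainly from transcripts with the kinase part or from sequence that both kinds hold. The counts were not divided by the length that only 1 kind holds, so they give no share of the short form.

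Epha4, the receptor that binds ephrins of both classes, fell in CD24+ cells. It had 25.1, 22.6 and 26.7 CPM in CD24- libraries and 7.39, 7.51 and 7.49 CPM in CD24+ libraries. The CD24+ libraries were nearly equal and all below the CD24- libraries. On the log2 scale it fell by 1.73 (SE 0.13, adjusted p = 2.3e-06 from edgeR), and its level was 3.31-fold higher in CD24- cells.

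Epha2, a receptor that is abundant in many carcinomas and can act there without a ligand, had 271, 265 and 373 CPM in CD24- and 319.6, 295 and 289 CPM in CD24+ libraries. The groups overlapped, since CD24- replicate 3 was above and the other CD24- libraries below all of the CD24+ libraries. Its log2 fold change was -0.01 with a 95% interval of -0.29 to 0.27 (adjusted p = 0.95 from edgeR), and the sign turned in several settings. The interval leaves room for a change of that size in either direction.

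The 4 ligands split by gene, with 2 higher, 1 lower and 1 not called, beside 23.8% higher and 22.3% lower of all genes tested. Efnb2, the transmembrane ligand of EphB receptors that is known from arteries, had 60.6, 65.8 and 89.2 CPM in CD24- and 165, 179.8 and 189 CPM in CD24+ replicates 1 to 3. All of the CD24+ libraries were above the highest CD24- library. The log2 fold change was 1.31 with a standard error of 0.13 (adjusted p = 2.52e-05 from edgeR), 2.48-fold.

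Efnb1, the other ephrin-B ligand and the X-linked gene of craniofrontonasal syndrome, had the fewest reads of the 10 genes, 534 in all. Its values were 4.63, 6.92 and 6.09 CPM in CD24- and 6.13, 8.98 and 8.64 CPM in CD24+ libraries, which overlapped. The log2 fold change of 0.46 ± 0.21 (SE) was not called (adjusted p = 0.0947 from edgeR). With its coding reads alone it was 0.73 and called, with an adjusted p of 0.0412 from edgeR.

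Efna1, a lipid-anchored ligand that binds Epha2 strongly, fell in CD24+ cells. It had 40.6, 45.0 and 36.4 CPM in CD24- and 19.2, 18.5 and 17.0 CPM in CD24+ replicates 1 to 3, with no overlap. On the log2 scale it fell by 1.17 (SE 0.11, adjusted p = 1.73e-05 from edgeR), and its level was 2.25-fold higher in CD24- cells. Its partner Epha2 showed no called change in the same libraries.

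Efna5, a lipid-anchored ligand known from the map of retinal axons in the midbrain, rose. It had 28.4, 25.3 and 32.6 CPM in CD24- and 39.3, 47.9 and 44.1 CPM in CD24+ libraries. The lowest CD24+ value was above the highest CD24- value. Its log2 fold change was 0.62 ± 0.12 (SE; adjusted p = 0.00186 from edgeR), 1.53-fold. The 2 lipid-anchored ligands were thus called in opposite directions.

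**Figure D2:**
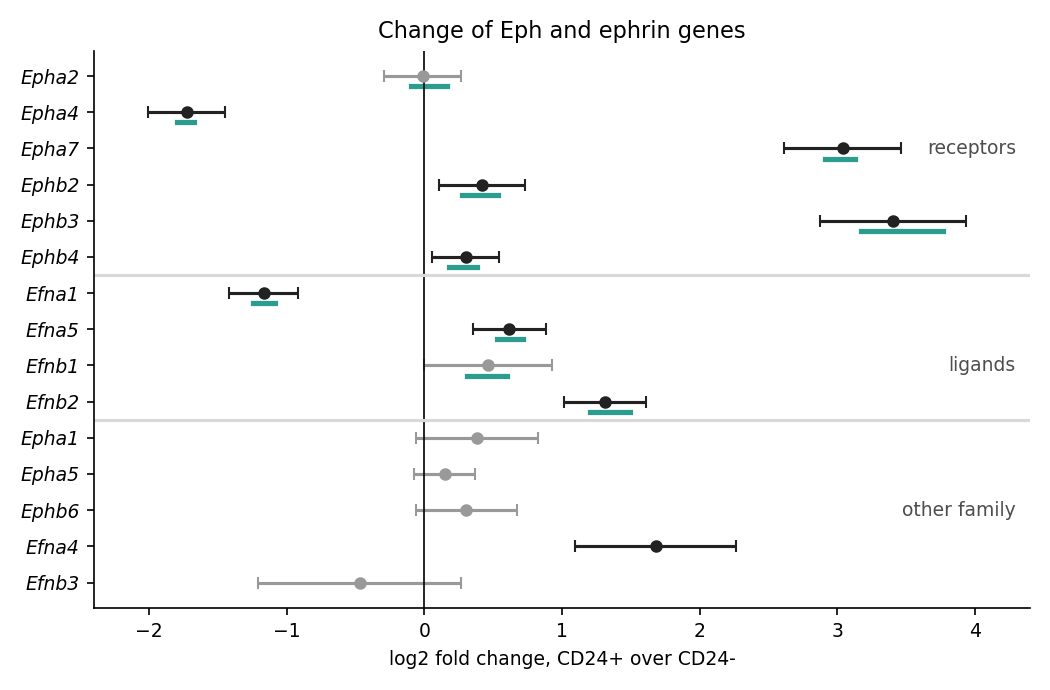
Log2 fold change of CD24+ over CD24- cells for the receptors, the ligands and the 5 other family genes tested, with 95% intervals, black where the adjusted p was below 0.05 and grey where not. Of the reads behind the Epha5 point, 0 matched an Epha5 transcript. Green bars give the range when each library was left out in turn. Ephb3 and Epha7 are above 2.6 and Epha4 and Efna1 below -0.9 over their whole intervals, while the intervals of Ephb2 and Ephb4 end close to 0.

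To ask whether a change came from a single stretch of a transcript, reads were split over the front and the back portion of the coding sequence and the 3′ UTR of 1 main transcript per gene. Ephb3 had log2 ratios of mean CPM of 3.01, 3.38 and 3.82 in these stretches, with the reads annotated to it. Its CD24- libraries together held only 19, 18 and 7 reads there, and those of Epha7 24, 23 and 18. Differences between the stretches of these 2 genes are therefore not read as a result. Epha7 had ratios of 3.09, 3.11 and 2.60, and Epha4 had ratios of -1.92, -1.44 and -1.75. All stretches of these receptors therefore moved in the direction of the whole gene.

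Efnb2 had log2 ratios of 1.2, 1.25 and 1.33 in the same stretches, and Efna1 had ratios of -1.30, -0.94 and -1.05. In Ephb4 the ratios were 0.23, 0.41 and 0.35. The 3′ UTR gave 72.2% to 76.6% of the Efnb2 reads, 61.6% to 72.0% of the Efna5 reads and 57.6% to 64.8% of the Efna1 reads of a library, but only 31.8% to 42.4% of the Efnb1 reads. The receptors Epha2, Ephb2 and Ephb4 were read mostly in the coding sequence, with 66.7% to 70.8% for Epha2.

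**Figure D3:**
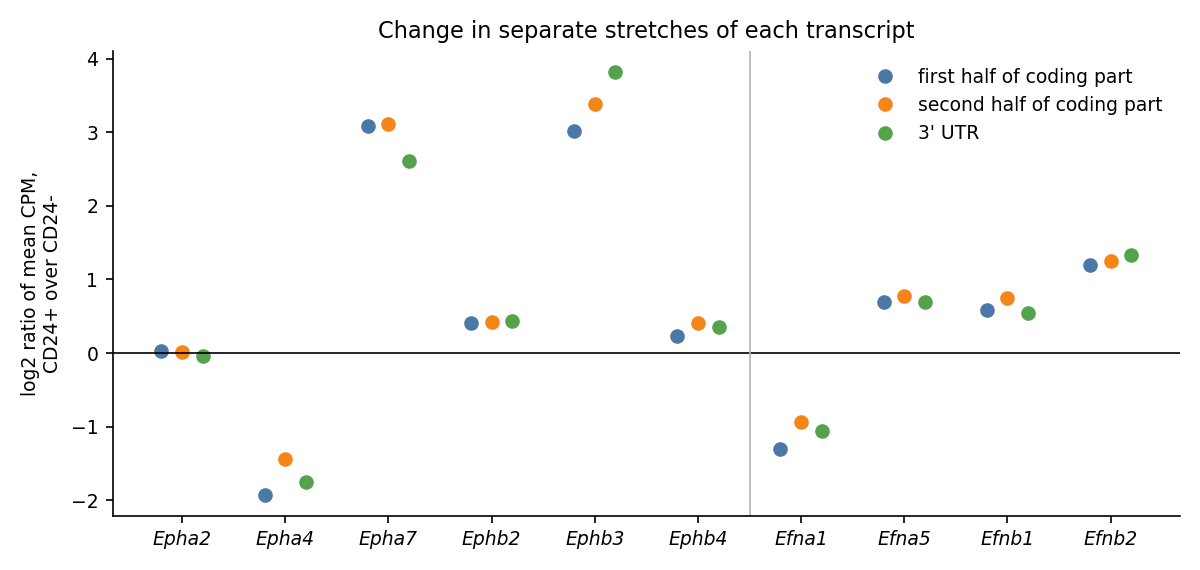
Log2 ratio of mean CPM, CD24+ over CD24-, in the front and the back portion of the coding sequence and in the 3′ UTR of each gene. The points of each called gene lie on 1 side of 0, with Ephb3 between 3.01 and 3.82 and Epha4 between -1.92 and -1.44, and those of Epha2 lie at 0.03, 0.02 and -0.03.

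Levels of different genes were compared as CPM per kb, with the reads that were annotated to the gene and matched its main transcript divided by the number of positions at which a 47-nt read fits within 1 exon. These levels were computed for the 10 genes only, so other family genes such as Ephb6 and Efna4 have no place in the orders below. Epha2 had the highest level of the 6 receptors in both groups, 89.8 ± 18.1 in CD24- and 90.2 ± 6.49 CPM per kb in CD24+ cells (SD, n = 3 each). Ephb4 followed with 36.6 and 45.7 and Ephb2 with 12.9 and 17.3 CPM per kb. Ranges of neighbours in this order did not overlap in either group.

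The lower part of the order of these 6 receptors changed between the groups. In CD24- cells Epha4 was next with 4.14 ± 0.388 CPM per kb, above Ephb3 at 0.449 ± 0.227 and Epha7 at 0.390 ± 0.0698, whose ranges overlapped. In CD24+ cells the order was Ephb3 at 4.6 ± 0.488, Epha7 at 3.07 ± 0.446 and Epha4 at 1.26 ± 0.0493, with no overlap. Every read that matched its main transcript, repeat reads included, gave Ephb3 5.77 ± 0.225 CPM per kb in CD24- and 10.6 ± 1.49 in CD24+ cells. Both values were above Epha4. But 1311 of the 1472 reads not annotated to Ephb3 were a pure repeat of 2 bases, and 1345 matching reads also matched transcripts of Epha10. These values are therefore not used as a level of Ephb3, and its place above rests on the reads annotated to it.

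Among the 4 ligands, Efna1 and Efnb2 changed places. In CD24- cells Efna1 had 30.3 ± 3.04, Efnb2 15.2 ± 3.0, Efna5 6.46 ± 0.572 and Efnb1 1.87 ± 0.332 CPM per kb. In CD24+ cells Efnb2 led with 37.7 ± 2.54, before Efna1 at 14.1 ± 0.777, Efna5 at 10.4 ± 0.613 and Efnb1 at 2.59 ± 0.532. No neighbours in either order overlapped. Efna1 made up 56.3% of the summed level of these 4 ligands in CD24- and 21.7% in CD24+ cells, and Efnb2 28.2% and 58.3%.

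Summed over the 6 receptors, the level was 144 ± 10.3 CPM per kb in CD24- and 162 ± 5.72 in CD24+ cells. Summed over the 4 ligands it was 53.8 ± 2.0 and 64.8 ± 2.83. Both sums were higher in each CD24+ library than in any CD24- library. The ratio of receptors to ligands was 2.66, 2.53 and 2.86 in CD24- and 2.74, 2.39 and 2.40 in CD24+ replicates 1 to 3. These ratios overlapped, and their mean log2 value differed by -0.10, or by -0.05 without CD24- replicate 3 and -0.16 without CD24+ replicate 1. Without division by length the difference was -0.58, with ratios of 3.40 to 3.76 in CD24- and 2.25 to 2.62 in CD24+ libraries that did not overlap. These undivided ratios also took all reads annotated to a gene, including those outside its main transcript.

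**Figure D4:**
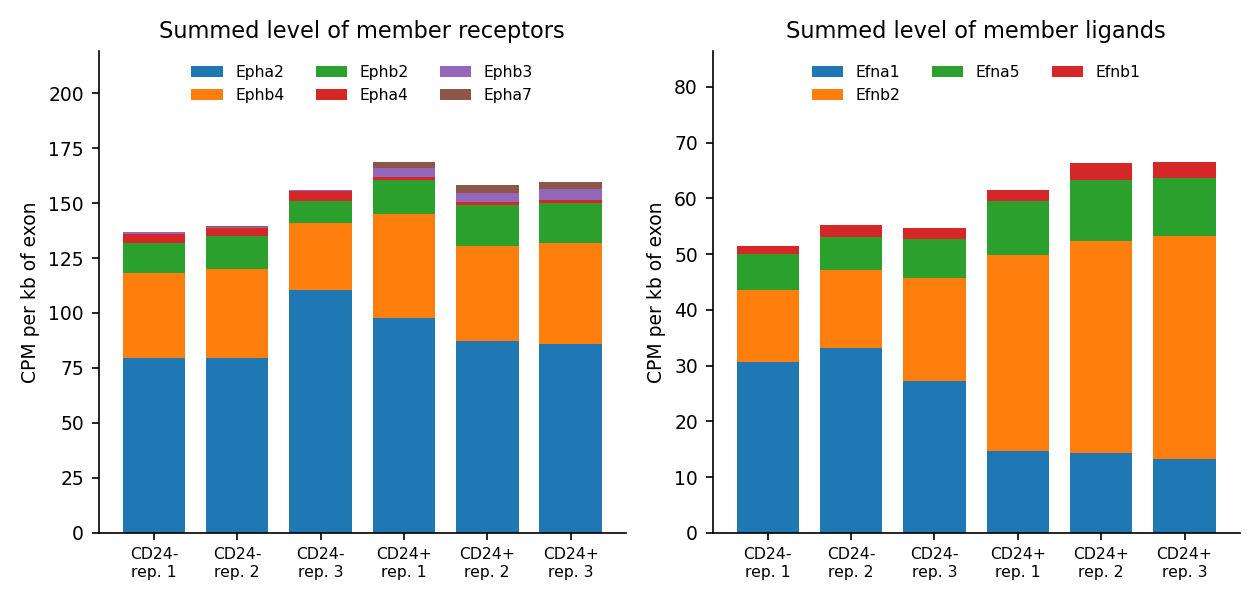
Summed level of the receptors (left) and ligands (right) in each library, as CPM per kb of exon, stacked by gene. Efna1 in blue is the largest part of the ligand bar in each CD24- library, at 49.7% to 60.1%, and Efnb2 in orange in each CD24+ library, at 57.0% to 60.2%, while Epha2 in blue fills most of every receptor bar.

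The rest of both families, 12 genes, was mostly at the edge of detection. Reads annotated to 11 of them were found, and 5 had enough for the test, of which 1 was called higher, beside 23.8% of all genes tested. That gene was Efna4, a further lipid-anchored ligand, with 1.68, 2.08 and 1.35 CPM in CD24- and 7.24, 5.08 and 4.87 CPM in CD24+ replicates 1 to 3. No CD24+ library overlapped the CD24- libraries, and the log2 fold change was 1.68 ± 0.26 (SE; adjusted p = 4.94e-04 from edgeR).

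Ephb6, a receptor whose kinase is inactive, had 14.2 to 18.6 CPM in CD24- and 17.1 to 25.3 CPM in CD24+ libraries and was not called (log2 fold change 0.31, SE 0.17, adjusted p = 0.156 from edgeR). Efnb3 (-0.47) and Epha1 (0.38) were not called either. Only 34.4% of the 334 reads annotated to Epha1 matched one of its transcripts, and 79.6% matched a transcript of another gene.

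Epha5, a receptor of the nervous system, was not called at 0.15. Of its 3634 annotated reads, 0 matched an Epha5 transcript, 85.0% matched a transcript of another gene and 0.138% lay on the plus strand, so its counts are not used as a level of Epha5. Below the filter were Efna3 with 57 reads, of which 24.6% matched an Efna3 transcript, Efna2 with 14, Epha3 with 9, Epha6 with 3 and Ephb1 and Epha8 with 1 read each over all libraries. None of the reads annotated to Epha3 or Epha6 matched a transcript of that gene. No reads annotated to Epha10 were analysed here.

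Downstream of the receptors and ephrins lie adaptors, exchange factors for small GTPases, kinases, phosphatases and the proteases that shed ephrins. Of 45 such genes listed, 40 had reads and 36 were tested, of which 8 were higher, 5 lower and 23 not called, with a median log2 fold change of 0.03. Beside this, 46.1% of all genes tested were called. Of the 5 lower genes, Mllt4 was not called without CD24- replicate 1, 2 or 3 or CD24+ replicate 1, and Grb2 was not called without CD24- replicate 1 or 2 or CD24+ replicate 3. The largest increases were those of Arhgef19, a guanine nucleotide exchange factor, at 2.29 ± 0.23 (SE), of Fyn, a Src family kinase, at 1.44 ± 0.13, and of Pik3r1, the regulatory subunit of phosphoinositide 3-kinase, at 0.87 ± 0.10.

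The decreases were led by Tiam1, a Rac exchange factor that binds Epha2 and ephrin-B1, with 59.4, 57.9 and 65.2 CPM in CD24- and 9.75, 10.6 and 9.38 CPM in CD24+ libraries. Its log2 fold change was -2.61 ± 0.11 (SE; adjusted p = 5.92e-08 from edgeR). Abl2, a kinase of the actin cytoskeleton, was at -0.98 ± 0.12, and Cbl, a ubiquitin ligase of receptor kinases, at -0.49 ± 0.11. Adam10, the protease that cleaves ephrins, was at -0.01 and the GTPases Rhoa and Rac1 were at -0.01 and 0.03, none of them called.

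The genes next to each called member were looked up by position, with 2 tested genes on either side. Only tested genes whose symbol is in GENCODE M21 could be placed, so genes under an older symbol were passed over. Of these 32 neighbours of the 8 called members, 9 were called, 4 in the direction of the member and 5 in the other, beside 46.1% of all genes tested. Efna1, which was lower, lies on chromosome 3 with Efna4, which was higher, at a distance of 52.2 kb, and with Krtcap2 (0.82) on its other side. Near Ephb3 the only called neighbour was 2510009E07Rik, 426 kb away, which had a mean of 0.342 CPM in CD24- and 2.16 CPM in CD24+ libraries and passed the filter only through the CD24+ group, and no neighbour of Efnb2 was called.

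The called neighbours of Epha7 were Manea at 0.53 and Klhl32 at -0.32, which lie 2466 and 3962 kb away. That of Epha4 was Acsl3 at 0.74, 1143 kb away, and that of Efna5 was Man2a1 at -0.33, 1719 kb away. For Ephb2 it was Hnrnpr at 0.41, 288 kb away, and for Ephb4 Trip6 at 0.48, 35.7 kb away. Zan overlaps the 3′ end of Ephb4 and was not called (-0.13), and the kit does not mark strand. Epha2, itself not called, lies 43.7 kb from Arhgef19.

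The genes whose pattern over the 6 libraries was nearest to that of Ephb3 and of Epha4 were found among 9335 genes, as the smallest root mean square difference of centred log2 CPM. Before the log, 0.5 CPM was added. The CD24- libraries held only 9 to 23 reads of Ephb3, so its pattern there rests on few reads. For Ephb3 these were Osr1 (0.12), Arhgef10 (0.148) and Il17rd (0.149), with log2 fold changes of 3.26, 3.36 and 2.97. For Epha4 they were Rnpep (0.0706), Itpk1 (0.0805) and Aim2 (0.0856), at -1.59, -1.59 and -1.78. With 2 groups and 6 libraries, genes of alike fold change lie near each other by this measure.

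Markers of other cell types moved between the groups as well. Of 11 epithelial markers 10 had reads and 4 were tested, with Krt8 (-1.04), Krt18 (-1.78) and Krt19 (-1.96) lower, and the summed level was 1847 to 2042 CPM in CD24- and 761 to 906 CPM in CD24+ libraries. Cldn3, at 0 to 0.66 CPM in CD24- and 1.81 to 3.30 CPM in CD24+ libraries, passed the filter on low counts only through the CD24+ group. The 7 fibroblast markers had sums of 5.75 to 10.4 and 14.9 to 20.4 CPM. Of these, Pdgfra was higher (0.87) with overlapping libraries, Dcn, Col1a1 and Col1a2 passed the filter only through the CD24+ group, and no reads annotated to Thy1 or Lum were analysed here. The 7 leukocyte markers had sums of 46.7 to 80.6 and 6.94 to 9.60 CPM, with Cd68 lower (-3.03) and Itgam at 3.27 to 4.45 CPM in CD24- and 0 to 0.0524 CPM in CD24+ libraries, while Ptprc, the general leukocyte gene, had 2 reads in all. The 6 endothelial markers summed to at most 4.07 CPM in any library, with Cdh5 at 1.58 to 2.27 CPM in CD24- and 0.113 to 0.472 CPM in CD24+ libraries and Pecam1 at 9 reads. Itgam and Cdh5 passed the filter only through the CD24- group. The 3 basal epithelial markers had too few reads to test, with at most 1.57 CPM in sum. Their part in the changes of the Eph and ephrin genes was not tested.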

How the data were processed

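Single-end mRNA-seq was made from 3 plates each of Mvt1 cells sorted as CD24- or CD24+. Reads were trimmed by the authors to 47 nt. Identical reads were merged with their number kept, placed on the mouse genome (mm9 in the submitters' processing notes) where they matched exactly, and given 1 annotation each. The deposited values are these counts per sequence and library, neither normalized nor pooled. An exact match leaves out reads across exon junctions and over variants, and the library kit does not mark strand. The mapping tool is not given in the sources used here. The median coverage and quantile normalization that the authors applied later were not repeated.

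The deposited counts were summed per gene symbol. Reads annotated to no feature (16.9% to 20.2% of a library), to repeats (7.56% to 10.2%) or to small and noncoding RNA were left out of totals and tests. There were 16024 annotations, 14765 of them genes, among which 12642 carry a current symbol and 1790 only a synonym. Each library was taken as a replicate because the study used 3 plates per group. Within a group the libraries differed beyond counting noise, which does not show that they are independent. Chi-square over its degrees of freedom was 1.71 for CD24- replicates 1 and 2, the closest pair, and 9.33 to 15.2 for the other pairs. Genes that passed filterByExpr were tested with edgeR 4.0.16 in R 4.3.3, by the quasi-likelihood test after TMM scaling, at a Benjamini-Hochberg adjusted p below 0.05. DESeq2 1.42.0, other scalings and filters, distinct sequences counted once, a replicate block and each library left out were alternatives. Reads were matched by sequence to GENCODE M21 transcripts on GRCm38, the build of all coordinates, and no coordinates of the 2 builds were mixed.

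The 10 genes, the other family genes, the pathway list and the markers were chosen with earlier results of these data known. Beside the 10 genes, the text names other family genes, the 3 largest called increases and decreases of the pathway list, neighbours of called genes, the 3 genes nearest in pattern to the largest increase and decrease, and Cd24a. Adam10, Rhoa, Rac1 and the markers named were added after their values were seen.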

Additional observations from a re-analysis of the deposited data

How the results depend on the processing

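Over 23 results and their alternatives, 297 of 324 values stayed as reported, in direction and call, for a count within 1.5 times, or for the ratio of receptors to ligands within 1 SD between replicates, and 140 of 160 values for the 10 genes did, not counting levels per kb. Ephb3, Epha7, Efnb2, Efna5, Epha4 and Efna1 kept direction and call in each alternative run. With all transcript-matching reads Ephb3 was at 0.91 and Epha4 at -1.19. Most reads that this added were a pure repeat of 2 bases, 1311 of 1472 for Ephb3 and 432 of 505 for Epha4. Epha2, never called, changed sign to 0.0054 with the replicate block, 0.0043 with transcript-matching reads, 0.0053 with annotated reads that matched a transcript and 0.021 with coding reads, and ranged from -0.10 to 0.16 when 1 library was left out. Ephb2 was no longer called at 0.39 with distinct sequences counted once (adjusted p = 0.0562 from edgeR) and 0.42 with coding reads (adjusted p = 0.0571 from edgeR), and ranged from 0.28 to 0.54 with 1 library left out. Ephb4 was no longer called at 0.29 with RLE scaling, 0.28 without TMM and 0.22 with distinct sequences, with adjusted p from edgeR of 0.0523, 0.0653 and 0.155, and ranged from 0.18 to 0.38 with 1 library left out. Efnb1 was called at 0.73 with coding reads. Of 20 levels per kb, 5 moved by more than 1 SD with every read matching the main transcript, a choice also made after seeing the data: Ephb3 and Efna5 in both groups and Epha7 in CD24+ cells. The log2 ratio of receptors to ligands differed by -0.58 with all annotated reads and without division by length, and by -0.16 to -0.05 with 1 library left out. Without a filter on low counts, 2 other family genes were called, both higher (Efna4, and Efna3 at 1.43, of whose 57 reads 24.6% matched its own transcripts and 45.6% those of another gene), and 5495 genes in all. Of the pathway genes, 3 were lower with the replicate block (Tiam1, Abl2 and Cbl, called in each alternative run, without Mllt4 and Grb2) and 3 to 5 with 1 library left out. The cause of these changes was not tested. With distinct sequences counted once, 2147 genes were higher and 1550 lower, and DESeq2 called 5066 genes. Leaving out 1 library gave 4069 to 5358 called genes, and thinning every library to the shallowest, which was chosen after seeing the data, gave 4712. The alternatives on annotated reads that matched a transcript and on coding reads were also added after seeing the data. A minimum of 1 CPM in 3 libraries selected the same genes as the filter in use, so it tested nothing and is not counted above. The labels share replicate numbers but do not say that a number marks a shared plate, day or batch. Deviations of same-numbered libraries from their group means correlated at 0.0143, -0.251 and -0.310, so these libraries did not deviate together. The block is therefore given only here. It left 4493 genes called and the calls of the 10 genes at 6 higher and 2 lower. Low counts limit Ephb3 and Epha7 in CD24- cells, Efnb1 and the other family genes, and plates of 1 line cannot show how other sorts would vary.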
